A study of Rattus norvegicus with 20 samples.

Results

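MiRNA reads that run past the annotated 3' end of a mature miRNA, with the extra bases equal to the next bases of its precursor, were followed in the rat adBNST, the anterodorsal part of the bed nucleus of the stria terminalis. Every read used here began at the annotated 5' base, held no mismatch and carried no added base that differs from the precursor, and these reads are called the eligible reads of a miRNA. A templated 3' extended isomiR is the part of them that gained bases at the 3' end, and the extended share is the percentage of a miRNA's eligible reads that gained any. There were 751 extended forms among the 67859 isomiR forms of the series, a form being 1 miRNA with 1 set of gained bases. They gained 1 base in 391 forms, 2 bases in 234 and 3 bases, the longest gain listed, in 126. They came from 410 of the 566 miRNAs that had eligible reads, and held 13393955 of 101753049 eligible reads.

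Small RNA of the adBNST, a forebrain nucleus involved in anxiety-like behaviour, was sequenced from 20 Sprague-Dawley rats, 1 library per rat, with 5 rats in each of 4 groups. All rats were weaned at postnatal day 21. Socially isolated (SI) males and females then lived alone for 6 weeks, and group housed (GH) males and females lived as 3 littermates of the same sex. At 9 weeks of age each rat passed the elevated plus maze and was killed some hours later, so every group had been through that test, and the females had been selected for RNA quality and for a range of estradiol levels. Bilateral tissue punches were used, so the libraries hold all cell types of the nucleus, and fewer cells of a type cannot be told apart from less RNA per cell.

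A precursor hairpin is cut by Drosha at its base and by Dicer near its loop, so Dicer makes the 3' end of an arm named 5p and Drosha the 3' end of an arm named 3p. A cut that lies further out, or less trimming afterwards, leaves a longer 3' end, while the seed at the 5' end, which pairs with target mRNAs, stays the same. The reference 3' end is a choice of the miRNA database, and it need not be the end that is most used in a tissue.

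The sequences that carry the results follow, first the reference with its seed (bases 2 to 8) in capitals and then the most frequent extended form with its gained bases in capitals. All reads are written as DNA, 5' to 3', as deposited. The miR-30 family is shown because its 5p arms share 1 seed and part company at the 3' end.
miR-30a-5p reference: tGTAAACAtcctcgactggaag
miR-30a-5p extended: tgtaaacatcctcgactggaagCT
miR-30d-5p reference: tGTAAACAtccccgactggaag
miR-30d-5p extended: tgtaaacatccccgactggaagCT
miR-30e-5p reference: tGTAAACAtccttgactggaag
miR-30e-5p extended: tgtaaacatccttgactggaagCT
miR-30c-5p reference: tGTAAACAtcctacactctcagc
miR-30c-5p extended: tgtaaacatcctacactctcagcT
miR-30b-5p reference: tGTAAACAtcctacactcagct

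The pairs miR-148a and miR-148b, and miR-26a and miR-26b, are shown because each pair shares a seed while 1 member was read mostly as its reference and the other mostly as its extended form.
miR-148a-3p reference: tCAGTGCActacagaactttg
miR-148a-3p extended: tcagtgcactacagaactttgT
miR-148b-3p reference: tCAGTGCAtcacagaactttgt
miR-26b-5p reference: tTCAAGTAattcaggataggt
miR-26b-5p extended: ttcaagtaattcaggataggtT
miR-26a-5p reference: tTCAAGTAatccaggataggct

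The next miRNAs are shown because their extended form or share passed a test between housing groups (miR-23a-3p and miR-598-3p), because they gave many extended reads (miR-7a-5p and let-7b-5p), or because their gained bases name the precursor (miR-128-3p) or are often 3 in number (miR-222-3p).
miR-23a-3p reference: aTCACATTgccagggatttcc
miR-23a-3p extended: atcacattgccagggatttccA
miR-598-3p reference: tACGTCATcgtcgtcatcgtta
miR-598-3p extended: tacgtcatcgtcgtcatcgttaT
miR-7a-5p reference: tGGAAGACtagtgattttgttgt
miR-7a-5p extended: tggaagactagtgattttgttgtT
let-7b-5p reference: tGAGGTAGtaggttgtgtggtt
let-7b-5p extended: tgaggtagtaggttgtgtggttT
miR-222-3p reference: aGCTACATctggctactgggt
miR-222-3p extended, 2 bases: agctacatctggctactgggtCT
miR-222-3p extended, 3 bases: agctacatctggctactgggtCTC
miR-128-3p reference: tCACAGTGaaccggtctcttt
miR-128-3p extended, C: tcacagtgaaccggtctctttC
miR-128-3p extended, TT: tcacagtgaaccggtctctttTT

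Of the 410 miRNAs with extended reads, 372 names were found in RefSeq, and 621 of their 680 extended sequences lay whole in a RefSeq hairpin. Of the miRNAs printed above, miR-30d-5p, miR-30b-5p and miR-598-3p were not matched, and the let-7b-5p form with T gained was in no hairpin of the table. On build GRCr8 the mature miR-23a-3p lies in the Mir23a hairpin at chr19:40859778-40859798 on the minus strand, miR-30a-5p in Mir30a at chr9:33233946-33233967 on the plus strand, and miR-30e-5p in Mir30e at chr5:139637504-139637525 on the minus strand. The mature miR-148a-3p lies in Mir148a at chr4:81664447-81664467 on the minus strand, miR-26b-5p in Mir26b at chr9:83425723-83425743 on the plus strand, and miR-222-3p in Mir222 at chrX:6022682-6022702 on the plus strand.

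The libraries held 3428930 to 11383055 reads assigned to miRNAs, and the medians of GH and SI were 4983188 and 7290553 in the males and 5276646 and 6998674 in the females. Each library listed 245 to 503 extended forms, and 168 forms were in every library while 133 were in a single one. Counts under 2 are not listed, so a value of 0 means only that no such read reached a count of 2. No 2 libraries were copies, since over the 190 pairs the chi-square was never below 86.8 times its degrees of freedom. The deposited files of the SI male and the SI female that are both numbered 17 carry each other's sex in their names. The sample labels were followed, and the calls of extended forms and shares and the pooled shares are also given with the 2 exchanged. The brain miRNAs miR-124-3p, miR-9a-5p, miR-9a-3p and miR-128-3p summed to 71359 to 207570 CPM, which are counts scaled to 1e6 read assignments, and 4 miRNAs of liver and muscle summed to 10.9 to 48.5. The 3 blood miRNAs summed to 954 to 1440 CPM in the GH groups and 1354 to 3354 in the SI groups, with miR-486 making up nearly all of it and miR-451-5p at 0 to 29.6 CPM. The 6 markers of choroid plexus and epithelium summed to 781 to 16849 CPM, the highest in SI male 20 and almost wholly miR-204-5p there, and the part of either marker group in the results was not tested.

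Extended reads made up a minority of the eligible reads in every library, but they were unevenly spread over the miRNAs. Their share per library ran from 9.71% to 14.6%, with a median of 13.7%, beside 58.9% reference reads and 27.9% reads that ended before the reference 3' end (medians). Of the 259 miRNAs with at least 100 eligible reads in at least 15 libraries, 16 had no extended read, 75 had a mean share of up to 1%, 69 lay between 1% and 10%, 54 between 10% and 50%, and 45 above 50%. The median miRNA had a share of 3.56%. In 33 miRNAs the share was above 50% in every one of the 20 libraries, and in 49 the extended reads outnumbered both the reference and the shortened reads. As a single sequence, the most frequent eligible read was the reference in 160 of 257 miRNAs, a shortened read in 51 and an extended read in 46. Those 46 had a median reference length of 21 bases and a median read length of 23.

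Most extended miRNAs favoured 1 length of gain. Among the 99 miRNAs with a mean share over 10%, the most frequent gain was 1 base in 78, 2 bases in 15 and 3 bases in 6. In 70 of them more than 80% of the extended reads ended at the same base, and the median was 94.1%. Over all extended reads of a library, 1 base was gained by 70.0% to 83.5%, 2 bases by 13.9% to 28.3% and 3 bases by 1.45% to 2.69%. The first gained base was T in a median of 56.5% of the extended reads, C in 30.6%, A in 7.09% and G in 5.95%. A base that a tailing enzyme adds to the 3' end is listed as templated when it equals the next precursor base, and the 2 origins cannot be told apart for a T or an A.

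The highest shares belonged to miRNAs of several families. In miR-148a-3p, a miRNA known from liver and immune cells, the share was 95.3% ± 1.77 (SD, n = 20) and ran from 91.0% to 99.9%. It was 94.9% ± 1.23 in miR-543-3p and 93.3% ± 2.34 in miR-409a-3p, both from the imprinted Dlk1-Dio3 region, whose long miRNA cluster is expressed in neurons. In miR-30e-5p it was 91.7% ± 2.40, in miR-222-3p 89.4% ± 1.73, in miR-411-3p 88.4% ± 3.63 and in miR-30a-5p 87.6% ± 2.82. The reference of each of these miRNAs was a minor read, at 2.10% of the eligible reads in miR-30e-5p and 9.53% in miR-222-3p. Next came miR-770-5p at 86.8% ± 2.03, miR-382-3p at 86.4% ± 2.81, miR-26b-5p at 84.8% ± 2.81, miR-30d-5p at 82.6% ± 3.08 and miR-874-3p at 81.5% ± 9.72. In the first 5 of these 12 by order the lowest library stood at 86.2% or higher, whereas miR-874-3p, with a mean of 519 eligible reads, fell to 49.0% in its lowest library. Of neighbours in this order, miR-148a-3p and miR-543-3p, or miR-411-3p and miR-30a-5p, lay closer together than 1 SD.

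Another 6 miRNAs had mean shares above 90% but too few other reads for a test. The extreme was miR-770-3p, of the Dlk1-Dio3 region, in which all eligible reads were extended in all 20 libraries and none was the reference or shorter. Of these reads 78.7% had gained 3 bases, which is the longest gain listed, so reads with a longer 3' end would not be counted. Its reference on build GRCr8, chr6:134298129-134298145, is shorter than 19 bases, the shortest of the most frequent reads described above. The part of that short annotation in its share was not tested. The others were miR-421-3p at 99.98%, miR-181a-2-3p at 99.9%, miR-505-3p at 98.8%, and miR-376a-5p and miR-190b-5p, both at 97.4%, with mean eligible reads of 215 to 489.6.

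By number of reads, few miRNAs made up most of the extended reads. MiR-7a-5p, a miRNA of neurons and endocrine cells, gave a mean of 20.7% of a library's extended reads, miR-30d-5p 11.7%, miR-30a-5p 9.13%, miR-30c-5p 4.70%, let-7c-5p 4.51%, let-7b-5p 3.94%, miR-7b 3.63% and miR-139-5p 2.24%. The extended share of miR-7a-5p was 46.2% ± 2.05, close to its 44.4% of reference reads, and that of miR-7b was 38.2% ± 2.65. The let-7c-5p reads were extended in only 7.89% ± 0.528, but this miRNA had a mean of 395626 eligible reads. In miR-139-5p the share was 65.3% ± 2.70. In miR-9a-5p, which is as abundant as let-7c-5p and is known for its role in neural progenitors, it was 0.125% ± 0.0726, with 62.6% of the eligible reads shortened.

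Members that share a seed differed widely in their 3' ends. In the miR-30 family, the 5p arms a, d and e were read mostly with CT gained, at 72.7%, 66.3% and 82.6% of their eligible reads, and miR-30c-5p mostly with T gained, at 81.0%. All 4 most frequent reads were therefore 24 bases long. In miR-30b-5p, whose reference has 22 bases, the share was 0.226% ± 0.560 and 95.3% of the reads were the reference. The 3p arms miR-30a-3p and miR-30e-3p of the same hairpins had shares of 1.41% ± 0.717 and 0.0750% ± 0.238.

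The same contrast held in other pairs with 1 seed. The share of miR-148b-3p was 0.392% ± 0.262, against 95.3% in miR-148a-3p, and its reference has 22 bases, as many as the miR-148a-3p read with T gained. MiR-26a-5p had 0.266% ± 0.0798 and miR-26b-5p 84.8%. MiR-221-3p had 4.40% ± 1.38, beside 89.4% in miR-222-3p, and its reference is 23 bases long against 21. In miR-27a-3p it was 0.0457% ± 0.205 and in miR-27b-3p 14.3% ± 1.90. In miR-101a-3p it was 40.4% ± 10.4 and in miR-101b-3p 74.6% ± 8.57. MiR-23a-3p and miR-23b-3p, at 64.2% ± 6.32 and 60.5% ± 2.66, lay within 1 SD of each other. MiR-29a-3p and miR-29c-3p did too, at 2.55% ± 0.711 and 5.65% ± 3.90, whereas miR-181a-5p at 3.92% ± 0.991 and miR-181b-5p at 13.6% ± 2.20 had ranges that did not overlap. In the let-7 family, whose members hold cells in a differentiated state, let-7b-5p stood highest at 26.4% ± 1.73. Of the other 5p arms there followed let-7c-5p, let-7e-5p at 5.30% ± 0.562, let-7a-5p at 4.26% ± 0.330, let-7d-5p at 3.48% ± 0.401, let-7g-5p at 2.86% ± 0.341, let-7f-5p at 2.68% ± 0.271, let-7i-5p at 0.803% ± 0.166 and miR-98-5p at 0.623% ± 0.173. Of the 3p arms, let-7a-1-3p and let-7c-2-3p had the same reads and 13.2% ± 14.2, with a mean of 179.9 eligible reads.

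Long gains were rarer and sat on a few miRNAs. Besides miR-770-3p, the share that gained 3 bases was 72.3% in miR-421-3p, 71.0% in miR-181a-2-3p and 58.4% in miR-505-3p, none of which could be tested. Among the miRNAs whose share was tested it was 60.7% in miR-129-1-3p, 42.9% in miR-412-5p, 39.9% in miR-222-3p, 32.4% in miR-221-5p, 20.7% in miR-140-3p and 18.4% in miR-877. MiR-222-3p had nearly equal parts with 2 and 3 gained bases, at 42.3% and 39.9%. MiR-140-3p, known from cartilage, was spread over 3 lengths, with 22.6%, 24.8% and 20.7% gaining 1, 2 and 3 bases. MiR-129-1-3p and miR-221-5p had means of only 230 and 587 eligible reads, and their total shares ran from 37.1% to 100% and from 52.2% to 100%.

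The 3 miRNAs with the steadiest shares between rats were more abundant than the 3 most variable ones, and a relation over all miRNAs was not tested. As the SD of the log2 odds within groups, with a pseudocount of 0.5 read, the steadiest of the miRNAs with a share of 5% to 95% and at least 1000 eligible reads were miR-9a-3p at 0.10, let-7c-5p at 0.11 and miR-128-3p at 0.12. The most variable were miR-448-3p at 1.93, miR-653-5p at 1.91 and miR-652-3p at 1.73. Their shares ran from 0% to 64.8%, from 45.7% to 100% and from 0% to 17.4%, and these miRNAs had means of 1280.1, 1466 and 1772 eligible reads against 79131 or more for the first group.

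The extended share went with the length of the reference. The 65 miRNAs with a reference of 21 bases or fewer had a median share of 32.7%, and 26 of them were above 50%. The median was 2.54% in the 138 miRNAs with 22 bases, of which 14 were above 50%, and 1.93% in the 54 with 23 or more, of which 4 were. The median of the shortest class lay above that of the 22-base class in all 20 libraries, whereas the 22-base class lay above the longest in 13. By the next base of the precursor, the median share was 13.3% before an A (38 miRNAs), 3.92% before a T (109), 0.495% before a C (55) and 0.326% before a G (56), although 14 of the 55 before a C were above 50%. Arms made little difference to the median, at 3.76% in 116 5p and 3.34% in 124 3p miRNAs, with the 5p median higher in all 20 libraries. In 51 hairpins both arms could be measured. The 5p share was the higher in 31 of them, 12 had a single arm above 50%, and in 1, that of miR-770, both were above 50%. These are descriptions over miRNAs of the same libraries and carry no test.

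Some miRNAs have the same mature sequence in several precursors, and in 11 of them the extended reads held bases that belong to different precursors. They include miR-128-3p, a brain miRNA that limits neuronal excitability, in which a gained C belongs to Mir128-2 and gained T bases to Mir128-1. Of the reads that named a precursor, a median of 67.8% matched Mir128-2, with 61.8% to 71.6% over the libraries, and 32.2% matched Mir128-1. For miR-92a-3p, a median of 74.4% matched Mir92a1 and 25.6% Mir92a2. For let-7f-5p, a median of 99.0% matched Mirlet7f2. A gained T or A may also have been added by a tailing enzyme, so these are parts of matching reads, and their origin was not tested. In miR-138-5p the medians of 56.5% for Mir138-1 and 43.5% for Mir138-2 rest on few reads and ran from 0% to 100% over the libraries. In miR-9a-3p gains of at least 2 bases set Mir9-3 apart from Mir9-1 and Mir9-2, but not these from each other.

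The miRNAs were also grouped by family, region and cell type. The let-7 family had 15 measured members, a median share of 2.86% and none above 50%, and the miR-30 family had 8 members, a median of 41.2% and 4 above 50%. In the Dlk1-Dio3 region the 53 members had a median of 3.06%, and 13 were above 50%. Of 21 neuron-enriched miRNAs 2 were above 50%, with a median of 9.83%, of 6 in the miR-23/27/24 clusters 2 were, and of 6 in the miR-181 family 1 was. None of the 3 miR-29 members, the 6 glial and myelin miRNAs or the 6 vascular and blood miRNAs was above 50%. Members with many extended reads in these groups were miR-485-5p at 57.7% ± 3.47, miR-21-5p at 40.1% ± 4.31, miR-145-5p at 7.71% ± 4.58, miR-338-5p at 4.84% ± 1.31 and miR-16-5p at 2.62% ± 1.43.

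Whether housing moved the pooled extended share of a library was compared first. The 5 GH males had 13.6%, 14.1%, 13.7%, 14.1% and 14.1% extended reads, and the 5 SI males 12.8%, 11.1%, 13.4%, 13.1% and 14.5%. The 5 GH females had 14.61%, 13.68%, 12.997%, 14.52% and 14.1%, and the 5 SI females 14.2%, 12.6%, 12.96%, 9.71% and 11.8%. The SI groups were the more spread, and within each sex SI and GH overlapped. The means were 13.9% ± 0.231 in GH males, 12.98% ± 1.23 in SI males, 13.98% ± 0.664 in GH females and 12.3% ± 1.67 in SI females (SD, n = 5). The difference of SI from GH was -0.940 percentage points in males (exact permutation test, two-sided, p = 0.111) and -1.72 in females (exact p = 0.0556), where the smallest p that 5 against 5 allows is 0.00794. Averaged over the sexes it was -1.33 percentage points (exact permutation within sex, p = 0.00791, adjusted p = 0.0791 over the 20 tests of pooled shares). The housing effect differed between the sexes by -0.779 percentage points (exact p = 0.521), and GH females and GH males by 0.0583 (exact p = 0.889). Without SI male 17 and SI female 16, the libraries with the lowest shares, the difference was -0.464 percentage points in males, -1.08 in females and -0.772 averaged (exact p = 0.0297). With the libraries numbered 17 exchanged it was -0.787 in males and -1.87 in females (exact p = 0.111 and 0.0556), and -1.33 averaged.

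Reads with 2 gained bases carried most of the averaged difference and of that in males. In females, reads with 1 and with 2 gained bases had nearly equal parts. They made up 3.62% ± 0.234 of the eligible reads in GH males, 2.72% ± 0.529 in SI males, 3.65% ± 0.475 in GH females and 2.78% ± 0.959 in SI females. The averaged difference was -0.883 percentage points (exact permutation p = 0.00350, adjusted 0.0699), that in males -0.898 (exact p = 0.0238) and that in females -0.868 (exact p = 0.103). For 1 gained base the averaged difference was -0.474 (exact p = 0.104), the male one -0.0979 (exact p = 0.881) and the female one -0.851 (exact p = 0.0397). For 3 gained bases the male difference was +0.0553 (exact p = 0.0397). With the libraries numbered 17 exchanged the differences were -0.883 averaged (exact p = 0.00365), -0.841 in males (exact p = 0.0238) and -0.925 in females (exact p = 0.103) for 2 gained bases, and +0.0465 in males (exact p = 0.0635) for 3. The male difference for 3 gained bases had an exact p of 0.0635 to 1.0 in each of its 3 changed settings. After adjustment over the 20 tests, none of the differences passed 0.05. The median part of the miR-30 family in the reads with 2 gained bases was 78.0%, from 46.4% to 83.0% over the libraries.

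The pooled share depends on which miRNAs are abundant, and some abundant families had other levels in the SI than in the GH groups. The miR-30 family made up 5.21% of the eligible reads in GH males and 3.96% in SI males, and 5.45% in GH females and 3.75% in SI females. The let-7 family made up 27.8% and 34.1% in males and 28.5% and 36.2% in females. By miRNA, the largest parts of the averaged difference were -0.567 percentage points from miR-30a-5p, -0.387 from miR-30d-5p, -0.229 from miR-30e-5p and -0.172 from miR-7a-5p, while let-7c-5p added +0.161. The part of miR-7a-5p was -0.368 in females and +0.0237 in males. With the composition of every library set to the mean composition, the shares were 13.2% in GH males and 13.3% in each of the other 3 groups, and the averaged difference was +0.0668 percentage points (exact permutation p = 0.639). With each miRNA held at its mean share and only the composition left to vary, the averaged difference was -1.42 (exact p = 0.00913). Depth also differed between the housing groups, with the medians given above, and its part in these differences was not tested.

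The counts of single extended forms were then compared, with all isomiR forms of the series in 1 edgeR quasi-likelihood model and p-values adjusted over the 10290 forms tested, of which 403 were extended. Only 1 extended form (0.248%) passed at an adjusted p of 0.05, in the contrast averaged over the sexes, where 0.253% of all forms passed. This was miR-23a-3p with A gained, and miR-23a belongs to the miR-23/27/24 clusters, known from blood vessels. Its level was 1176, 1116, 1335, 987 and 1048 CPM in the 5 GH males and 580, 629, 710, 864 and 695 CPM in the 5 SI males. In the 5 GH females it was 1093, 903, 1106, 1639 and 1873 CPM, and in the 5 SI females 998, 673, 867, 556 and 717 CPM. The male groups did not overlap, and among the females SI rat 10 stood above the lowest GH rat. The log2 fold change was -0.75 (SE 0.15, adjusted p = 0.0466 by edgeR), with -0.70 in males (adjusted p = 0.275) and -0.80 in females (adjusted p = 0.318). With the libraries numbered 17 exchanged the adjusted p was 0.0615, and it exceeded 0.05 in 16 of the 20 fits that left out 1 library. Without SI female 10, the SI female nearest to the GH groups in this form, 20 extended forms passed in this contrast, 4 higher and 16 lower in SI, which is 4.96% of those tested beside 2.25% of all forms in the same fit. Without SI female 16 there were 6, or 1.49% beside 0.739%.

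Within each sex no extended form passed. In males 62 of the 403 (15.4%) had an unadjusted p under 0.05 and in females 54 (13.4%), beside 9.11% and 9.22% of all forms. EdgeR called 0.00972% of all forms in males and 0.0% in females. DESeq2's Wald test called 14 extended forms in males, 5 in females and 31 averaged over the sexes, of which 22 were lower in SI. These are 3.47%, 1.24% and 7.69% of the extended forms, against 1.48%, 0.982% and 4.10% of all forms. In the averaged contrast 78 extended forms had an unadjusted p under 0.05, 22 higher and 56 lower in SI, which is 19.4% of the extended forms beside 14.004% of all forms. The median log2 fold change of the extended forms was -0.21, against -0.09 over all forms.

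The forms next in order of p were these. MiR-383-5p with CT gained was at 43.3 to 73.1 CPM in GH males and 83.6 to 181 in SI males, without overlap, a log2 fold change of 1.22 (SE 0.28, adjusted p = 0.194). MiR-378a-3p with C gained had 332 ± 41.8 CPM in GH males and 573 ± 191 in SI males, 0.78 on the log2 scale (adjusted p = 0.230). MiR-653-3p with T gained had 11 to 73 reads in the 5 GH males and no listed read in the 5 SI males (adjusted p = 0.259). Among the females, miR-770-3p with CT gained was at 13.98 to 24.97 CPM in GH and 33.8 to 50.6 in SI, a log2 fold change of 1.06 (SE 0.24, adjusted p = 0.318). MiR-489-5p with T gained had reads in 4 of 5 GH females and in no SI female (adjusted p = 0.318). Under 9 alternative settings the outcome stayed the same in 7 for miR-383-5p and for miR-378a-3p, and in 8 for miR-770-3p in females. Each of these 3 forms passed the threshold in another setting. The study itself listed miR-383-5p with CT gained among the isomiRs changed in males, higher in SI.

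The CT form of miR-30e-5p, the highest of its family in share, came close to the threshold. Its level in males was 1886 to 2783 CPM under GH and 632 to 1217 CPM under SI. In females it was 2257 to 3497 CPM under GH and 213 to 2373 CPM under SI, of which SI rat 10 alone overlapped GH. The averaged log2 fold change was -1.30 (SE 0.28, adjusted p = 0.0552), and -1.30 with the libraries numbered 17 exchanged (adjusted p = 0.0704). All reads of miR-30e-5p together had a log2 fold change of -1.19 (adjusted p = 0.0039 in a fit of miRNA totals), and its extended share had a log2 odds ratio of 0.20 (adjusted p = 0.67).

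No extended form passed for the interaction of housing and sex, where 0.00972% of all forms did and 37 extended forms had an unadjusted p under 0.05, nor between GH females and GH males, where 0.0% did and 6 had. An unadjusted p under 0.05 was held by 6.41% of all forms in the interaction and 1.66% between the GH sexes, beside 9.18% and 1.49% of the extended forms. DESeq2 called 1 and 0 extended forms (0.248% and 0.0%), beside 0.185% and 0.0389% of all forms. The lowest p of the interaction belonged to miR-30c-5p with T gained. It was at 4192 ± 283 CPM in GH males and 5919 ± 684 in SI males, and at 5364 ± 904 in GH females and 4159 ± 437 in SI females, so that SI lay higher in males and lower in females (log2 difference -0.86, SE 0.21, adjusted p = 0.676). MiR-34a-5p with T gained, whose gene is a target of p53, had a log2 difference of -2.16 (adjusted p = 0.676), with 21.9 and 47.2 CPM in GH and SI males and 37.2 and 18.1 in the females. Between the GH sexes, miR-770-3p with CT gained was at 39.2 ± 6.64 CPM in males and 19.2 ± 5.22 in females (log2 fold change of females over males -1.03, adjusted p = 1.0). For miR-30c-5p with T gained that fold change was 0.35, and let-7c-5p with TAG gained was listed in 1 of 5 GH males and 4 of 5 GH females (adjusted p = 1.0 each).

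A change of the share, which sets the extended reads of a miRNA against its other eligible reads in the same library, was tested in 196 miRNAs. In males 2 of them passed, 1.02% of those tested, while 16 had an unadjusted p under 0.05. In miR-598-3p, a miRNA expressed in brain, the share was 48.3%, 50.8%, 50.9%, 47.9% and 49.0% in the 5 GH males and 59.6%, 65.0%, 60.1%, 60.8% and 58.1% in the 5 SI males. These groups did not overlap. The log2 odds ratio was 0.66 (SE 0.15, adjusted p = 0.0288 by edgeR), and the total of the miRNA had a log2 fold change of 0.02 (adjusted p = 0.99). The female shares were 49.3% to 54.2% in GH and 50.1% to 63.8% in SI, a log2 odds ratio of 0.27 (adjusted p = 0.729), and the test of the difference between the sexes gave -0.40 (adjusted p = 0.774).

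In miR-23a-3p the share moved the other way. It was 77.5%, 72.2%, 64.0%, 68.2% and 67.3% in the 5 GH males and 57.9%, 48.7%, 64.1%, 56.2% and 55.7% in the 5 SI males, where only SI rat 19 reached the lowest GH rat. The log2 odds ratio was -0.84 (SE 0.19, adjusted p = 0.0288), with -0.11 for the total of the miRNA (adjusted p = 0.83). Its shortened share rose in the same rats, with a log2 odds ratio of 1.10 (adjusted p = 0.0333). That ratio sets shortened reads against extended and reference reads together, so the 2 results are not independent. In females the extended share was 64.2% to 67.6% in GH and 58.5% to 68.2% in SI, a log2 odds ratio of -0.08 (adjusted p = 0.90), and the difference between the sexes was 0.76 (SE 0.26, adjusted p = 0.774). Both male calls were lost with the libraries numbered 17 exchanged (adjusted p = 0.204 for miR-598-3p and 0.299 for miR-23a-3p) and without SI male 17 (0.11 for each). Of the 10 fits that left out 1 male library, 1 kept the call of miR-598-3p and 2 that of miR-23a-3p.

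In females no share passed, 0.0% of those tested, with 14 at an unadjusted p under 0.05. The lowest p belonged to miR-106b-3p, of a cluster tied to cell proliferation. Its extended share was 4.59%, 6.47%, 11.1%, 3.34% and 5.16% in the 5 GH females, 3.97% in SI rat 10 and 0% in the other 4 SI females (log2 odds ratio -5.63, adjusted p = 0.108). With the libraries numbered 17 exchanged the log2 odds ratio was -3.66 (adjusted p = 0.432). In miR-323-5p it was 0.975% to 4.74% in GH females and above 0% in a single SI female (adjusted p = 0.593). In the neuronal miR-124-3p, of which 90.4% of eligible reads were shortened, it was 2.84% to 8.93% in GH and 2.07% to 3.58% in SI (adjusted p = 0.593).

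Averaged over the sexes no share passed either, 0.0%, with 28 at an unadjusted p under 0.05, 12 higher and 16 lower in SI. The nearest was miR-598-3p with a log2 odds ratio of 0.47 (SE 0.11, adjusted p = 0.0619). It was followed by miR-23a-3p at -0.46 and miR-140-3p at 0.66 (adjusted p = 0.146 each). The shares of miR-140-3p in males were 55.3% to 68.4% under GH and 68.8% to 82.5% under SI, and in females 58.5% to 71.4% and 64.3% to 78.9%. For the interaction 0.0% passed and 7 had an unadjusted p under 0.05. The lowest p values were those of miR-106b-3p, miR-23a-3p and miR-382-3p (adjusted p = 0.774 each), the last with 85.1% to 89.1% and 81.8% to 84.3% in GH and SI males. Between the GH sexes 0.0% passed, none had an unadjusted p under 0.05, and miR-320-3p, miR-129-5p and miR-139-5p came first (adjusted p = 0.992 each). By comparison, the share of shortened reads passed in 8 of 247 miRNAs in males, 1 in females and 12 averaged, each of them higher in SI.

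Within the families, regions and cell types named above, the calls fell on the miR-23/27/24 clusters only, with 1 of 9 tested forms in the averaged contrast and 1 of 4 tested shares in males, and both are miR-23a-3p, while miR-598-3p belongs to none of these lists. In the averaged contrast an unadjusted p under 0.05 was held by 14.004% of all forms and 19.4% of the extended forms, with median log2 fold changes of -0.09 and -0.21, and the lists are given beside these. Here 7 of the 24 tested let-7 forms had an unadjusted p under 0.05, all higher in SI, with a median log2 fold change of 0.38. Of the 12 tested miR-30 forms 5 had one, all lower, with a median of -0.26, and of 73 forms of the Dlk1-Dio3 region 2 were higher and 10 lower, with a median of -0.44. The count of a form also follows the total of its miRNA. Among the shares at an unadjusted p under 0.05, 1 of 12 was higher in let-7, 2 of 5 were higher in miR-30, and 2 of 42 were higher and 7 lower in the Dlk1-Dio3 region. The median log2 odds ratios over all tested shares of these 3 lists were 0.05, 0.20 and -0.19. Over all 196 tested shares the median was -0.15, and 14.3% had an unadjusted p under 0.05. Of the neuron-enriched forms 3 of 49 were higher and 7 lower, and of the glial and myelin forms 1 of 12 was higher and 3 lower. Of the 9 forms of the miR-181 family 4 were lower, of 6 in the miR-29 family 1 was lower, and of 7 vascular and blood forms none had one.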

How the data were processed

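Small RNA libraries (NEXTflex kit version 3, 215 ng total RNA, 22 PCR cycles) were sequenced on an Illumina HiSeq. As the methods state, adapters were trimmed with cutadapt and reads were assigned by seqbuster to rat miRNAs of miRBase release 21. The deposited tables give, for each library, raw read counts per sequence with its mismatch, added bases and gain or loss at either end, and a count of 2 is the lowest listed. Amplification over 22 cycles without molecular identifiers means that counts are not independent molecules. Groups followed the sample labels, and all libraries were used.

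Counts were summed per miRNA and 3' end in Python 3.11.15. A form was tested with at least 10 counts in at least 5 libraries, and a share with at least 10 extended and 10 other eligible reads in at least 5 libraries and 100 eligible reads in at least 15. Both used edgeR 4.0.16 (quasi-likelihood F test, 4 group means, TMM for forms and a coefficient per library for shares) with Benjamini-Hochberg adjustment and a threshold of 0.05. DESeq2 1.42.0, the tool of the study, and limma 3.58.1 were alternatives. Pooled shares were compared by exact permutation tests, two-sided, over 252 assignments within a sex and 63504 with labels permuted within each sex. The p-values set the differences between groups against the spread between rats, with each rat taken as independent. No label gives the cage or litter of a rat. GH rats that shared a cage were littermates while SI rats lived alone, so effects of cage cannot be told apart from housing.

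On simulated counts for SI against GH in males, 200 of 10290 forms were changed and the test recovered 3% at a log2 change of 1 and 10% at 2. For shares, with 60 of 196 changed, it recovered 26.7% and 46.7%, and 8.33% of its calls were false.

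The members, lists and tests were chosen with earlier results of these data known. The tests of each gain length and those of composition, and the fits without both low libraries, were added after the values had been seen. The miRNAs named are the 12 tested ones with the highest share, the 8 with the most extended reads, those past the threshold or the 3 lowest p values per contrast, the 6 tested ones with most 3-base gains, 2 per list, and the 3 steadiest and 3 most variable. Members of a seed family, those over 90% without a test, and miR-30e-5p with CT gained were named after their values were seen. Rats numbered alike in SI and GH were checked for pairing, and their deviations correlated between -0.15 and 0.08, so the number was not used as a block. The check rests on few pairs and cannot exclude pairing.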

Additional observations from a re-analysis of the deposited data

Results flagged for a closer look

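In groups of 5 libraries, 7 of 92 groups examined held a library whose gap to its nearest neighbour exceeded 0.71 of the range of its group. Chance gives about 1 in 20 for normally distributed values. That rate does not apply to miR-106b-3p, miR-323-5p and let-7c-5p with TAG gained, where a single library had a listed read and the gap is the whole range. The extended share of miR-106b-3p was 3.97% in SI female 10 and 0 in the other SI females. That of miR-323-5p was 2.10% in SI female 12 and 0 in the others. In GH female 17 the share of miR-129-5p was 3.94%, and the next was 3.33%. For miR-770-3p with CT gained, GH male 20 had 27.5 CPM, below the next at 40.5. For miR-34a-5p with T gained, SI female 17 had 36.8 CPM, above the next at 17.4. For let-7c-5p with TAG gained, GH male 20 with 0.968 CPM and SI female 14 with 3.42 CPM were the only libraries of their groups with a listed read.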

How the results depend on the processing

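The number of extended forms past the threshold depended most on the test. DESeq2's Wald test gave 14 in males, 5 in females, 31 averaged and 1 for the interaction. These are 3.47%, 1.24%, 7.69% and 0.248% of the extended forms, beside 1.48%, 0.982%, 4.10% and 0.185% of all forms. With at least 10 counts in every library, males had 2 and the averaged contrast 28, which is 1.26% and 17.6% of the extended forms beside 1.41% and 12.5% of all forms in the same fit. Averaged over the sexes there were 4 with DESeq2 size factors, 4 with reads assigned to a single miRNA and 4 without both low libraries, or 0.993%, 1.01% and 0.993% beside 0.369%, 0.381% and 0.564% of all forms, and 0 with no count filter or with the libraries numbered 17 exchanged. Leaving out 1 library gave 0 to 2 in males, 0 to 1 in females, 0 to 20 averaged and 0 to 1 for the interaction. The highest of these are 0.496%, 0.248%, 4.96% and 0.248% of the extended forms, in that order. All forms in the same fits stood at 0.583%, 0.0292%, 2.25% and 0.0194%.

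Of the shares in males, 0 passed with no minimum of eligible reads or with the libraries numbered 17 exchanged, and 1 without both low libraries. With C or G as the first gained base 0 passed too, but the miRNAs of both male calls gain A or T first. These calls could not be tested in that setting, so their absence there says nothing about them. In females limma on log2 odds gave 1, and averaged a minimum of 1000 eligible reads gave 1. Leaving out 1 library gave 0 to 2 in males and 0 to 1 in females, averaged and for the interaction.

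For the pooled share, the median over miRNAs gave +0.809 percentage points in males, -1.32 in females, -0.256 averaged and -2.13 for the interaction. Equal composition gave +0.130, +0.0032 and +0.0668, and composition alone -1.11 in males. Without miR-7a-5p the male difference was -1.05, and with C or G first it was -1.28, with +0.0817 for the interaction and -0.0634 between the GH sexes. Leaving out 1 rat gave -1.31 to -0.464 in males, -2.21 to -1.08 in females and -0.0993 to 0.305 between the GH sexes. For 1 gained base in males the sign turned with the libraries numbered 17 exchanged (0.0077), without both low libraries (0.244) and over the leave-outs (-0.258 to 0.244). It turned also for 2 gained bases in the interaction (-0.084 exchanged, leave-outs -0.253 to 0.389) and 3 gained bases in females (0.0079 exchanged, leave-outs -0.0101 to 0.0118). Between the GH sexes the leave-outs spanned -0.0421 to 0.149, -0.0641 to 0.229 and -0.0139 to 0.008 for 1, 2 and 3 gained bases. The cause of these changes was not tested.

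With the shared rat number as a replicate block, which keeps 10 rats, 0 extended forms passed averaged over the sexes, and 2 shares in females and 4 averaged. The same rats without the block gave 0 forms averaged, and 2 and 3 shares. The blocked pooled share differed by -2.07 averaged (exact permutation p = 0.0625), 1 gained base by 0.515 in males and 3 gained bases by 0.0171 in females. MiR-653-3p with T gained, in the interaction, turned to -0.786 with the block and -0.826 in the same rats without it. No label says that the numbers pair the rats, and the deviations of rats numbered alike correlated between -0.15 and 0.08. With so few pairs that check cannot exclude pairing, so no conclusion is drawn from these values.

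Of the other results, 206 of 247 values under a changed setting and 663 of 750 with 1 library left out kept their direction and their side of the threshold. Most of these results had not passed the threshold, so staying on that side says little. Among those that passed, miR-23a-3p with A gained, averaged over the sexes, kept its call in 4 of 9 settings and 4 of 20 leave-outs. In males the share of miR-598-3p kept its call in 4 of 8 settings and that of miR-23a-3p in 3 of 8. Precision was low in miR-129-1-3p, which had a mean of 230 eligible reads and shares from 37.1% to 100%. The part of depth in that spread was not tested.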
